A study of Mus musculus with 4 samples.

Results

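Integrins are the cell-surface receptors through which a cell holds its surrounding matrix. Each is a pair of 1 alpha and 1 beta subunit, and the pairing sets which ligand is bound. The product of Itgb1 joins most alpha subunits, and that of Itgav joins the products of Itgb1, Itgb3, Itgb5, Itgb6 and Itgb8. Laminins are large secreted proteins of the basement membrane, each a trimer of an alpha, a beta and a gamma chain, and several integrins are their receptors. In brain, astrocyte endfeet contact the laminins of the vascular and pial basement membranes, and neurons use laminin as a substrate for axon growth.

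The genes described are those whose platform symbol names an integrin alpha or beta subunit or a laminin alpha, beta or gamma chain. They were 36 genes on 77 probe sets, of 18193 genes on 34945 probe sets with 1 gene symbol. Integrin genes numbered 26 (58 probe sets) and laminin genes 10 (19 probe sets). Itgbl1 encodes an integrin beta-like protein that is not a receptor subunit, but its symbol fits the pattern and it was kept in. The genes for the integrin-binding proteins named after Itgb1 and Itgb3 were left out.

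The samples were 4 Affymetrix arrays of primary cultures of cerebral cortex from C57BL6 mice, 2 of neurons and 2 of astrocytes, compared with each other. Neurons came from embryonic day 16 fetuses and, by the series description, were kept 7 days in vitro, in a medium of lower serum content (1%) with 19.4 mM glucose and added glutamine, progesterone, putrescine, transferrin, insulin and selenite, after plating in the medium of the astrocytes. Astrocytes came from newborn mice and were kept 20 days with 10% serum and 33 mM glucose, although the protocol text gives a single, shorter period for all assays. Both kinds of culture were dissociated with trypsin and carried no stated genetic change. No purification of a cell type was described beyond a medium change that removed loose cells from astrocyte cultures. Cell type, donor age, medium and time in culture changed together, so their effects cannot be told apart. The titles call the arrays of a group biological replicates; nothing says that these came from separate animals, so the p-values measure the spread between these arrays, which may be partly technical.

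Each gene was read as a MAS5 signal in arbitrary units, which can be compared between arrays for 1 probe set but not between probe sets. Background was the highest of 27 Bacillus subtilis control probe sets, which read 21 and 23 with neuron RNA and 17 and 15 with astrocyte RNA. Signals are given for replicates 1 and 2 in that order. Fold changes are on the log2(signal + 12.5) scale, as neurons minus astrocytes, and understate the change of dim genes. Adjusted p-values come from limma over 25019 kept probe sets, with a threshold of 0.05.

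The cultures carried markers of their labelled cell types, and markers of others. Of all 12040 genes read, 31.0% were higher in neurons and 31.1% higher in astrocytes. All 15 kept neuron markers were higher in neurons (Tubb3 2875 and 3021 against 68 and 63), with summed signals of 35774 to 36289 in neurons and 3072 to 3273 in astrocytes. Stmn2 was at 5727 and 6022 in neurons and 1465 and 1485 in astrocytes, so a neuron marker was well above background in the astrocyte cultures. Among astrocyte markers 13 were kept; 10 had the higher signal in astrocytes and 2 in neurons (sums of 25556 to 25720 in astrocytes, 12422 to 12925 in neurons); Gfap was at 1744 and 2133 in astrocytes and at 2 and 109 in neurons, and Aqp4 at 4668 and 3859 against 551 and 701. Aldoc was at 1842 and 2076 in astrocytes and 2574 and 3422 in neurons.

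Of the 36 genes, 19 had a probe set bright enough to be tested, and most of these were higher in astrocytes. There 12 of the 19 passed the threshold with the higher signal in astrocytes and 1 of the 19, the laminin beta chain gene Lamb1, with the higher signal in neurons; 6 did not pass. Over all 12040 genes read the same way, 31.1% were higher in astrocytes and 31.0% higher in neurons. Itga1, Itga7 and Lama3 were bright enough to be tested only on the astrocyte arrays, so they could be called in that direction only. In a limma fit without the filter on dim probe sets, their adjusted p-values were 0.000363, 0.00267 and 0.0329. Counted by probe set, 21 of 29 kept ones were higher in astrocytes and 2 in neurons, against 27.7% and 29.4% of all kept probe sets. The median log2 fold change of the 19 genes was -0.87, where that of all genes was 0.02. The neuron and astrocyte arrays did not overlap for 17 of the 19 genes, as for 81.9% of all genes. With any single array left out, fewer of these genes passed as higher in astrocytes. Such a fit leaves 1 array in a group. No share of all genes is given for it, so this loss cannot be set against one over all genes. Of the integrin genes alone, 13 were tested, 8 were higher in astrocytes and none in neurons (median log2 fold change -0.87). Of the laminin genes 6 were tested, 4 were higher in astrocytes and 1 in neurons (median -0.98). In such whole cultures, fewer cells of a type and less RNA per cell cannot be told apart.

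**Figure D1:**
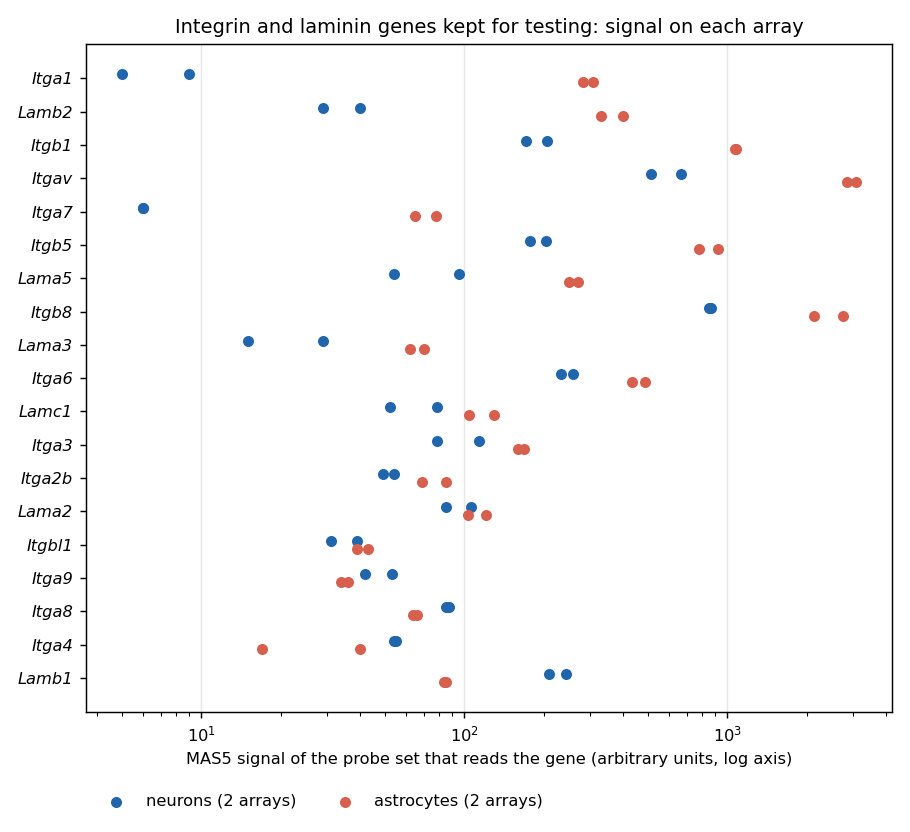
MAS5 signal (log axis, arbitrary units) of the 19 tested integrin and laminin genes, with 1 point per array for the 2 neuron and 2 astrocyte arrays, ordered by fold change. The astrocyte points lie to the right from Itga1 down to Itga2b and overlap the neuron points for Lama2 and Itgbl1; Lamb1 at the bottom is at 244 and 210 in neurons and 85 and 84 in astrocytes.

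Bases upstream of 6 of the genes that differed are shown, of which 5 were higher in astrocytes and the sixth, Lamb1, was higher in neurons. The 6 do not cover all genes that differed. Those of Itga3, Itgav and Itgb8, also higher in astrocytes, are not printed. RefSeq (GRCm38.p6) windows hold the 250 bases before 1 transcript start, and such a start can lie inside the gene where another transcript begins earlier. Of 27 windows of the integrin and laminin genes, 16 overlapped the annotated gene and 7 lay wholly inside it, that of Itgav (chr2:83724147-83724396) among them. Only the bases outside the annotated gene are printed, 5′ to 3′ on the strand of the gene. These are the whole window for Itga1 (chr13:115101965-115102214, minus strand), Itgb1 (chr8:128685404-128685653, plus) and Itgb5 (chr16:33829415-33829664, plus). For Lama5 they are 205 bases (chr2:180225905-180226109, minus), for Lamb2 235 (chr9:108479612-108479846, plus) and for Lamb1 103 (chr12:31265043-31265145, plus). Capitals mark matches on either strand to any of 5 motifs. The GC box was searched as GGGCGG, the AP-1 site of Fos and Jun proteins as TGANTCA and the TEAD site as GGAATG. The TATA box was searched as TATAAA, and the fifth motif was the CCAAT box by its name. Matches of different motifs were allowed to overlap.
Itga1: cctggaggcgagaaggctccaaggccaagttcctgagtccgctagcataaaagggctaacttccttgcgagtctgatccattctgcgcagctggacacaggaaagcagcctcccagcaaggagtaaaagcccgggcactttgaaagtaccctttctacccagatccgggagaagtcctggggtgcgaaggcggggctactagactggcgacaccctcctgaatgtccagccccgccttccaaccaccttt
Itgb1: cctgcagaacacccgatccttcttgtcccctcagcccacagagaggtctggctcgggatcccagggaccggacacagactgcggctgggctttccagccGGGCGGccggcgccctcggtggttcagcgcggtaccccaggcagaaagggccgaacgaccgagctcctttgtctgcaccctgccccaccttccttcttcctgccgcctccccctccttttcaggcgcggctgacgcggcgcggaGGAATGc
Itgb5: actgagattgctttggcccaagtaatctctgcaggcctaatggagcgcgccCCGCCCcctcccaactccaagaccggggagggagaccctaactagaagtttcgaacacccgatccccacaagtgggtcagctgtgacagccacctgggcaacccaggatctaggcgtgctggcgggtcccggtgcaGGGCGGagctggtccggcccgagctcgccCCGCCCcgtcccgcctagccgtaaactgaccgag
Lama5: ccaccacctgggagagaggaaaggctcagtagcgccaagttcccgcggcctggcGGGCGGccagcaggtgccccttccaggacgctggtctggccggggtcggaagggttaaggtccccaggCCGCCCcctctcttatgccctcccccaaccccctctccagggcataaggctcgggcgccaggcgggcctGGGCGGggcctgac
Lamb2: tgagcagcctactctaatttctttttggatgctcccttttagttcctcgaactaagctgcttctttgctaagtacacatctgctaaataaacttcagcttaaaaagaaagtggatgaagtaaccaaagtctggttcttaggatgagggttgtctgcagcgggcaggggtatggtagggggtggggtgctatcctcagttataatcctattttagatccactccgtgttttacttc
Lamb1: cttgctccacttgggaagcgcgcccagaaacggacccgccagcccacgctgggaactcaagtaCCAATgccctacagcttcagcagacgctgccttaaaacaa
The printed bases of Itgb5 and of Lama5 held 3 GC boxes each, those of Itgb1 held 1 GC box and 1 TEAD site, and those of Lamb1 held 1 CCAAT box. The CCAAT box was not particular to Lamb1. Over whole windows, 2 of the 9 of genes higher in astrocytes held it, the unprinted Itgb8 window among them. For Lamb1, 147 of the 250 bases lay inside the gene and were not printed. With the bases inside the gene included, the Lamb1 window held 2 GC boxes and the Lama5 window 4. None of the 5 motifs was found in the bases shown for Itga1 and Lamb2. The following shares are over whole windows, parts inside genes included. RefSeq windows were found for 24 of the 36 genes (27 windows). A GC box was present in 10 of the 27 windows, or 37.0%, against 32.7% of 32851 windows in the whole table. For the AP-1 site this was 1 window (3.70% against 6.75%), for the TEAD site 3 (11.1% against 12.6%), for the CCAAT box 5 (18.5% against 33.8%) and for the TATA box 0 of 27 (against 12.4%). The 8 genes higher in astrocytes with a window had a median GC content of 64.4% over 9 windows, where all windows had 52.4%. The Lamb1 window, of the gene higher in neurons, was near this at 62.0%. The median was 56.4% over the 27 windows and 54.4% over those of the genes too dim to be tested. A match is a run of letters and not a measured site.

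Among beta subunits, the 3 that were above background and tested were all higher in astrocytes. Itgb1, the common partner of the matrix-binding alpha subunits, had signals of 171 and 206 in neurons and 1077 and 1072 in astrocytes. Its astrocyte values were near each other and about as far from the neuron values on both arrays, and the log2 fold change was -2.44 (SE 0.14, adjusted p = 2e-06), a 5.43-fold difference. Itgb5, a partner of the Itgav product that binds vitronectin, was at 204 and 178 in neurons and 783 and 925 in astrocytes. The groups did not overlap (log2 fold change -2.09, SE 0.148, adjusted p = 6.3e-06). Itgb8 encodes the subunit that, with the Itgav product, binds the latent form of TGF-beta. It had a signal of 867 and 848 in neurons and 2746 and 2128 in astrocytes, with the wider spread in astrocytes (log2 fold change -1.48, SE 0.139, adjusted p = 3.27e-05). Its neuron signal was far above the background of 21 and 23, so the transcript was read in both cultures.

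Alpha subunits were more mixed. Itga1, which with the Itgb1 product forms a receptor for collagen and laminin, had the largest difference of the integrin genes tested. It was at 5 and 9 in neurons, under background, and at 283 and 307 in astrocytes. Astrocytes were thus at least 13.4-fold higher, taking the neuron background as the bound (adjusted p = 1.31e-06). Itgav, the subunit shared by receptors for vitronectin and latent TGF-beta, was at 668 and 511 in neurons and 2861 and 3078 in astrocytes. Neurons held a clear signal here too, and the difference was 4.99-fold (log2 fold change -2.32, SE 0.144, adjusted p = 3.06e-06). Itga7, a laminin-binding subunit known from muscle, was at 6 and 6 in neurons, under background, and at 65 and 78 in astrocytes, at least 3.25-fold higher (adjusted p = 9.24e-05).

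The other laminin-binding alpha subunits differed less. Itga6 was at 258 and 234 in neurons and 487 and 433 in astrocytes, a 1.83-fold difference with groups that did not overlap (log2 fold change -0.87, SE 0.143, adjusted p = 0.000908). Itga3 was at 79 and 114 in neurons and 160 and 169 in astrocytes, 1.64-fold higher in astrocytes (adjusted p = 0.0152). This was 1 of its 3 probe sets, and the others were at or under background in both cultures. The call for Itga3 did not hold without neurons replicate 1 (adjusted p = 0.0813), without astrocytes replicate 1 (0.128) or 2 (0.154), or without the filter on dim probe sets (0.0541).

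The alpha subunit genes Itga4, Itga8, Itga9 and Itga2b did not pass the threshold. Itga4 (5 probe sets), Itga8 (2) and Itga9 (3) had 1 kept set each, and their other sets were at or under background in both cultures. Itga4, which binds Vcam1 and fibronectin, was at 54 and 55 in neurons and 40 and 17 in astrocytes. Its neuron values lay above both astrocyte values, but the astrocyte arrays differed from each other by more than the groups' nearest values did, and the log2 fold change was 0.77 (95% interval 0.08 to 1.46, adjusted p = 0.0564). It passed without astrocytes replicate 1 (log2 fold change 1.18, adjusted p = 0.0287) and with the replicate number as a block (adjusted p = 0.03). Itga8, a receptor subunit for nephronectin, was at 85 and 87 in neurons and 64 and 66 in astrocytes (log2 fold change 0.35, interval -0.09 to 0.78, adjusted p = 0.151). Itga9, which binds tenascin-C, was at 53 and 42 against 36 and 34 (log2 fold change 0.33, interval -0.19 to 0.85, adjusted p = 0.246). For both genes the groups did not overlap, but the intervals included 0. Itga2b, the platelet subunit, was at 54 and 49 against 69 and 85 (log2 fold change -0.48, adjusted p = 0.0803). The beta-like gene Itgbl1 did not pass either, at 31 and 39 against 43 and 39 (log2 fold change -0.18, adjusted p = 0.545).

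**Figure D2:**
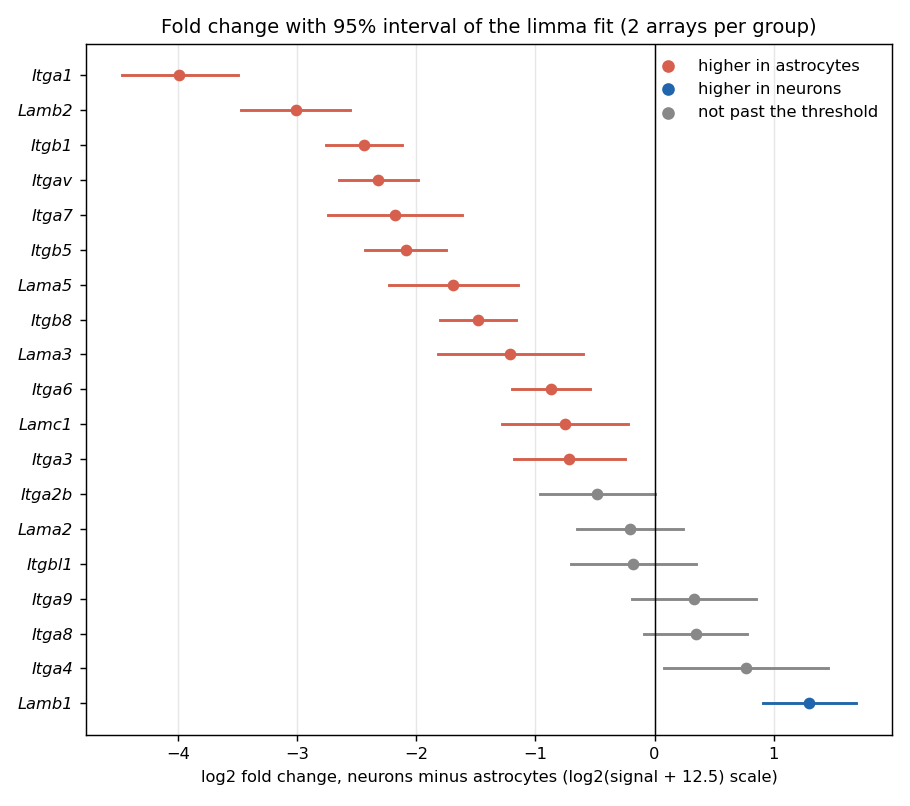
Log2 fold change (neurons minus astrocytes, on the log2(signal + 12.5) scale) of the 19 tested genes with the 95% interval of the limma fit, coloured by call. The 12 genes higher in astrocytes run from Itga1 (-3.99) to Itga3 (-0.72), 6 genes did not pass, and Lamb1 (1.30) was higher in neurons.

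Laminin chains moved in both directions, and the pair of beta chains did so most plainly. Lamb2, the beta chain known from the synaptic basement membrane of muscle and from vessels, was at 29 and 40 in neurons and 332 and 400 in astrocytes. This was an 8.08-fold difference, with every astrocyte value above both neuron values (log2 fold change -3.01, SE 0.198, adjusted p = 4.16e-06). With an offset 4 times as large the log2 fold change was -2.30. Lamb1, the beta chain of the early and most widespread laminins, was at 244 and 210 in neurons and 85 and 84 in astrocytes. It was 2.46-fold higher in neurons (log2 fold change 1.30, SE 0.169, adjusted p = 0.000233), again without overlap. The Lamb2 signal divided by the Lamb1 signal was 0.119 and 0.190 in neurons, against 3.91 and 4.76 in astrocytes. Because the probe sets differ, only the change of this ratio between cultures can be read, not which chain was more abundant.

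Of the alpha chains, Lama5 and Lama3 were higher in astrocytes. Lama5, a chain of mature vascular and pial basement membranes, was at 54 and 95 in neurons and 270 and 250 in astrocytes (log2 fold change -1.69, SE 0.236, adjusted p = 0.000358). The neuron arrays differed from each other, and the call was lost without astrocytes replicate 1 (adjusted p = 0.0507). Lama3, the chain of epithelial laminin, was at 29 and 15 in neurons, near background, and at 70 and 62 in astrocytes (log2 fold change -1.21, SE 0.266, adjusted p = 0.0044), and its call was lost without either astrocyte array (adjusted p = 0.0883 and 0.0706). The second Lama3 set, too dim to be tested, read 20 and 26 in neurons and 28 and 14 in astrocytes, with overlapping groups. Without probe sets that may match several transcripts, Lama3 had no value. Lama2, the alpha chain of the laminin of muscle and of brain vessels, was at 106 and 85 in neurons and 121 and 103 in astrocytes, with overlapping groups (log2 fold change -0.21, interval -0.65 to 0.24, adjusted p = 0.392). Lamc1, the gamma chain of most laminins, had a set too dim to be tested, at 5 and 26 in neurons and 12 and 49 in astrocytes. Its tested set was at 79 and 52 against 104 and 130 (log2 fold change -0.75, SE 0.231, adjusted p = 0.0229). That call was lost without neurons replicate 2 (adjusted p = 0.155), astrocytes replicate 1 (0.107) or 2 (0.213), and without the filter (0.0802).

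Where several probe sets read a gene, those bright enough to be tested pointed the same way. There were 7 such genes with 17 kept probe sets, and no gene had sets called in both directions. Some sets reached the array median only in the culture where they were high, so the filter fixed their direction in advance. These were both sets of Itga1, the second sets of Itgav and Lamb1, and the Itgb1 set with the smallest change. Their direction is no separate evidence. The 4 sets of Itgb5 gave log2 fold changes of -2.09, -2.12, -1.65 and -2.29. For Itgb1 the values were -2.44, -2.42 and -1.18, the smallest from a set with signals of 26 and 29 in neurons and 86 and 71 in astrocytes. The second set of Itga1 was at 6 and 2 in neurons and 90 and 112 in astrocytes, with a log2 fold change of -2.79, against -3.99 for the first. The neuron values of Itga1 on both sets were under background, as were those of the second Itgav set (4 and 5 against 66 and 58), so that these fitted values have no exact size; the bounds are at least 13.4- and 4.59-fold for Itga1 and at least 2.82-fold for that Itgav set. The second set of Itga6 gave -1.01, that of Lama5 -1.66 and that of Lamb1 0.91 (58 and 62 in neurons, 26 and 26 in astrocytes). Other sets of some of these genes were too dim to be tested, among them 3 of Itgav and 3 of Itgb1. The brightest of those Itgav sets read 25 and 30 in neurons and 27 and 19 in astrocytes, with overlapping groups.

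**Figure D3:**
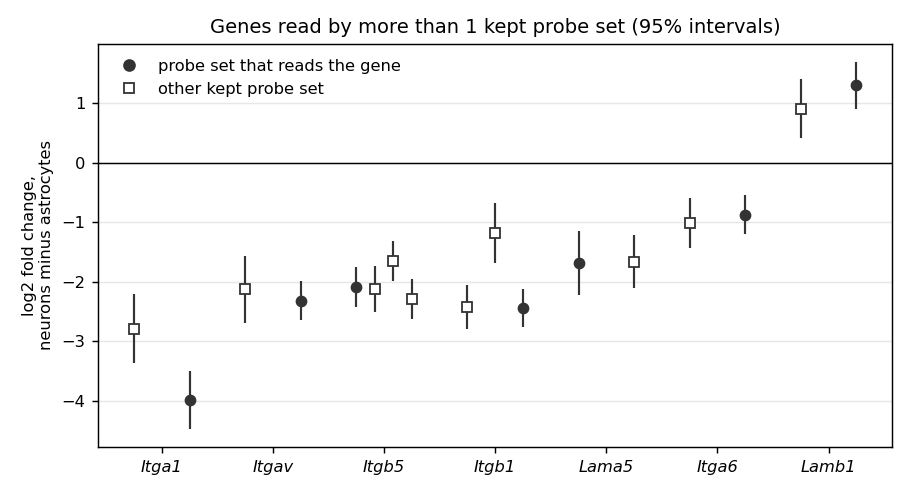
Log2 fold change (neurons minus astrocytes) with 95% interval of each kept probe set, for the 7 genes with more than 1. Filled circles are the probe sets used to read the gene and open squares the others. The 15 sets of the first 6 genes lie below 0 and both sets of Lamb1 above it.

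The other 17 genes were too dim to be tested, on 28 probe sets whose signals lay between 1 and 39. Of the 36 genes, 5 were at or under background on all probe sets in both cultures, 13.9% against 15.9% of all genes: Itgam, Itgb3, Itgb4, Itgb6 and Lama1. Itgb3 is the beta subunit of the platelet and osteoclast receptors, Itgb6 that of an epithelial receptor of latent TGF-beta, and Itgb4 the partner of the Itga6 product in epithelia. Apart from Itgb1, only Itgb5 and Itgb8 of the beta subunits that join the Itgav product were thus read well above background. Itga5, the fibronectin receptor subunit, had 4 probe sets, the brightest at 2 and 26 in neurons and 10 and 7 in astrocytes. Lama4, the alpha chain of vessel walls, was at 3 and 2 in neurons and 17 and 22 in astrocytes. Lamb3 was at 37 and 33 in neurons and 11 and 19 in astrocytes, and Lamc3, a gamma chain of the pial membrane, at 27 and 38 against 30 and 12. Of the rest, Itga10, a collagen receptor subunit, was at 4 and 11 in neurons and 27 and 10 in astrocytes, Itgb2l at 19 and 17 against 16 and 23, and Lama1, a chain of early embryonic laminin, at 9 and 16 against 2 and 2. A further 6 genes, Itga1, Itga7, Itga10, Itgae, Itgb2 and Lama4, were at or under background on all probe sets in neurons and not in astrocytes (16.7% of the 36, against 9.01% of all 18193 genes); the reverse held for 0 genes (against 4.60% of all). Neuron arrays had the higher background (21 and 23 against 17 and 15), and Itgb2, at 10 and 19 against 19 and 24, lay near it in both cultures. The filter asked for a signal at or above the array median, 32 to 37, on at least 2 of 4 arrays. Just inside it lay Itgbl1 (31 and 39 against 43 and 39) and just outside it Lamb3 and Lamc3. A low signal on 1 probe set does not show that a transcript is absent.

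The leukocyte integrin genes belonged to this dim group. Itgal, Itgam, Itgax, Itgae, Itgb2 and Itgb7 encode subunits of receptors of microglia, macrophages and lymphocytes. Over their 8 probe sets the highest signal was 29 in neurons and 30 in astrocytes. Itgb2, the beta subunit of several of these receptors, was at 10 and 19 in neurons and at 19 and 24 in astrocytes. Itgam was at 12 and 15 against 8 and 4, Itgax at 29 and 12 against 19 and 18, Itgae at 14 and 8 against 21 and 16, Itgal at 14 and 11 against 30 and 18, and Itgb7 at 26 and 8 against 5 and 18. On the same arrays 9 of 11 kept microglia and macrophage markers, of 18 listed, were higher in astrocytes, with summed signals of 223 to 250 in neurons and 1107 to 1109 in astrocytes. Of all genes, 31.1% were higher in astrocytes. Ctss was at 295 and 272 in astrocytes and 3 and 28 in neurons, while Laptm5 was at 55 and 48 in neurons and 51 and 36 in astrocytes (adjusted p = 0.489). The defining marker Aif1 was at 4 and 14 in neurons and 13 and 25 in astrocytes.

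**Figure D4:**
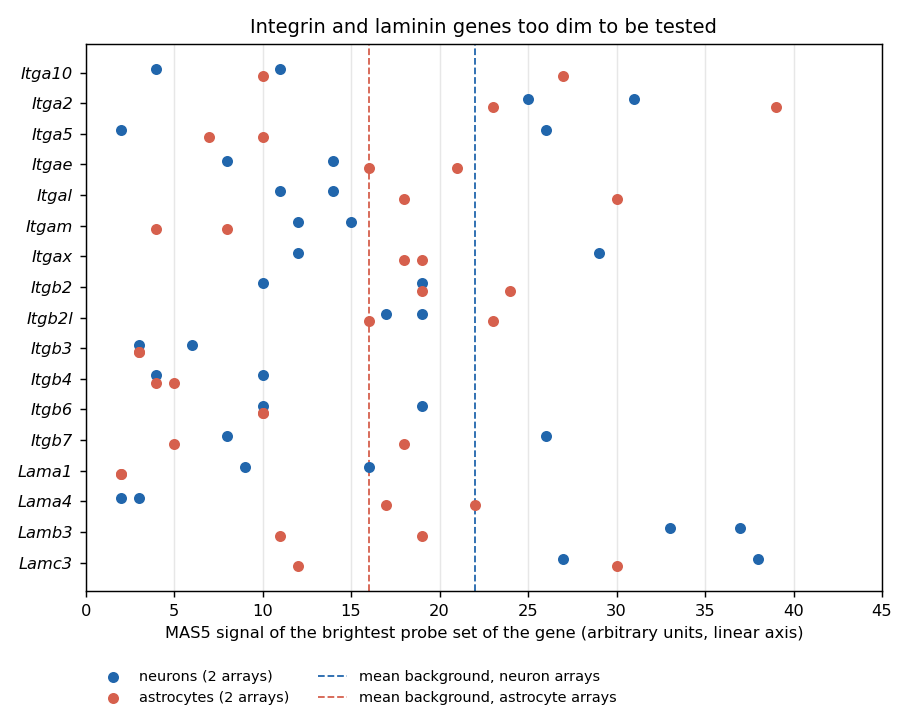
MAS5 signal (linear axis, arbitrary units) of the brightest probe set of each of the 17 genes too dim to be tested, with 1 point per array; dashed lines are the mean background of the neuron arrays (22) and of the astrocyte arrays (16). Signals run up to 38 in neurons (Lamc3) and 39 in astrocytes (Itga2); equal values are drawn over each other.

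Some of the genes lie side by side. Itga1 and Itga2 are neighbours on chromosome 13, and Itga1 was at least 13.4-fold higher in astrocytes while Itga2 was at 25 and 31 in neurons and 39 and 23 in astrocytes. Itgam and Itgax are neighbours on chromosome 7 and were both dim. Neighbours were taken from the RefSeq gene table of GRCm38.p6.

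The intracellular proteins that join integrins to actin were also mostly higher in astrocytes. Of 32 listed adaptor genes, 25 were kept, 18 were higher in astrocytes and 1 in neurons (median log2 fold change -1.11). As a base for this and the next lists, 31.1% of all 12040 genes were higher in astrocytes and 31.0% in neurons. Kank2, which encodes a talin-binding scaffold, was at 53 and 45 in neurons and 780 and 865 in astrocytes, 13.6-fold higher. Parva, a partner of the integrin-linked kinase, was 10.6-fold higher in astrocytes (91 and 59 against 864 and 930). Averaging the kept probe sets changed the log2 fold change of Kank2 from -3.76 to -3.08, and leaving out probe sets that may match several transcripts changed that of Parva from -3.40 to -2.53. Crk, a signalling adaptor, was 1.29-fold higher in astrocytes (1403 and 1296 against 1756 and 1740, adjusted p = 0.0181). Leaving out any single array ended that call, at adjusted p-values of 0.0563 to 0.1, and so did a fit without the mean-variance trend (0.0804) and averaging its probe sets (0.0611).

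The call for Tln1 depended on the probe set. Tln1 encodes talin, the protein that switches integrins to their active form. By its brightest set it was at 660 and 616 in neurons and 107 and 134 in astrocytes, 4.91-fold higher in neurons. Its second set read 30 and 21 in neurons and 139 and 213 in astrocytes, 4.90-fold higher in astrocytes, another set read 14 and 24 against 42 and 34, and averaging all 3 left a log2 difference of -0.23, at an adjusted p of 0.255 from limma. The direction for this gene is therefore unsettled, and it was the 1 adaptor called higher in neurons.

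The remaining genes of basement membranes followed the same majority. Of 17 listed, 11 were kept, 7 of which were higher in astrocytes and 1 in neurons (median -1.35). These counts stand against 31.1% and 31.0% of all genes. Col4a5, a collagen chain of the basement membrane network, was at 45 and 86 in neurons and 1433 and 1073 in astrocytes, a 16.6-fold difference (adjusted p = 3.29e-06). Sparc, a collagen-binding matrix protein, was at 707 and 817 against 8669 and 10233, 12.2-fold (log2 fold change -3.61, or -2.66 with its kept probe sets averaged). Smoc1, a calcium-binding relative of Sparc, was 4.96-fold higher in neurons (127 and 147 against 23 and 13, adjusted p = 5.93e-05); its log2 fold change of 2.31 was 1.46 with an offset 4 times as large.

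Non-laminin ligands of integrins were called in both directions, with more of them higher in astrocytes. Of 26 listed, 20 were kept, 11 were higher in astrocytes and 5 in neurons (median -0.91). The shares over all genes were 31.1% and 31.0%. Ccn1 and Ccn2 encode matrix-associated ligands of several integrins. Ccn1 was at 74 and 129 in neurons and 4612 and 4522 in astrocytes, 41.4-fold higher (log2 fold change -5.37, or -4.55 without probe sets that may match several transcripts, adjusted p = 3.25e-07), and Ccn2 was 29.4-fold higher (161 and 200 against 5331 and 5970). In neurons the largest excess was of Edil3, a ligand of receptors with the Itgav product, at 601 and 708 against 29 and 34, 15.1-fold (log2 fold change 3.92, adjusted p = 5.64e-07, or 3.11 if the offset is 4 times as large). Mfge8, a related ligand that marks dying cells for uptake, was 3.89-fold higher in neurons (1208 and 2095 against 359 and 444). Ccn3, of the same family as Ccn1, was 2.20-fold higher in neurons (2109 and 1693 against 904 and 806). Without probe sets that may match several transcripts, Mfge8 and Ccn3 had no value, and 3 ligand genes in place of 5 were higher in neurons.

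Membrane proteins that associate with integrins, tetraspanins and syndecans among them, were kept for 15 of 18 genes, with 11 higher in astrocytes and 1 in neurons (median -1.52). Over all genes the shares were 31.1% and 31.0%. Sdc4, a heparan sulfate proteoglycan of focal adhesions, was 13.7-fold higher in astrocytes (183 and 131 against 2099 and 2469) and the hyaluronan receptor gene Cd44 11.3-fold (66 and 54 against 833 and 777). Cd81, a tetraspanin, was at 2446 and 2651 in neurons and 6828 and 7879 in astrocytes, 2.87-fold. The single gene higher in neurons was Sdc3, the neuronal syndecan, at 1023 and 907 against 155 and 122 (6.50-fold, log2 fold change 2.70, adjusted p = 2.16e-06). Averaging its kept probe sets gave a smaller log2 fold change of 1.38.

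Dystroglycan is the other main laminin receptor of astrocytes. Listed for its complex and for the enzymes that attach its laminin-binding sugars were 25 genes, of which 18 were kept. Against 31.1% and 31.0% of all genes, 11 of the 18 were higher in astrocytes and 4 in neurons (median -0.83). The number higher in neurons was smaller without neurons replicate 1, neurons replicate 2 or astrocytes replicate 1, and no share of all genes is given for those fits. Utrn, which links the complex to actin, was 9.84-fold higher in astrocytes (110 and 127 against 1161 and 1398). Sgce, a sarcoglycan gene, was 4.59-fold higher in astrocytes (183 and 211 against 942 and 951); read without probe sets that may match several transcripts, its log2 fold change was -0.45 (adjusted p = 0.151), and with its kept sets averaged -1.32, against -2.20. Pomgnt2, an enzyme of the sugar chain, was 2.15-fold higher in neurons (460 and 472 against 205 and 215). Rpsa encodes a ribosomal protein also described as a laminin-binding protein and was 2.98-fold higher in neurons (6903 and 6172 against 1987 and 2402). It has many near-identical pseudogenes, so its reading is uncertain.

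**Figure D5:**
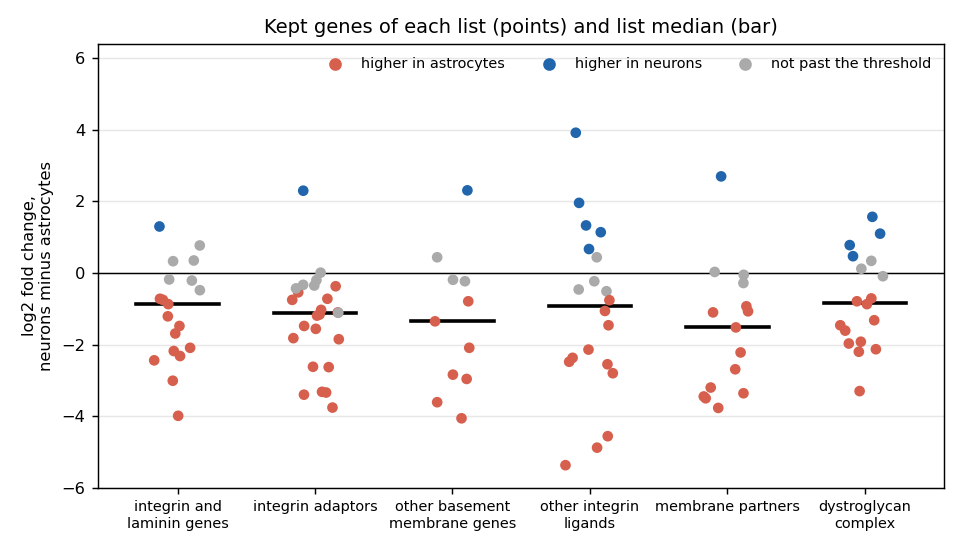
Log2 fold change (neurons minus astrocytes) of each kept gene (points) in the integrin and laminin set and in 5 related lists, with the list median (bar), coloured by call. The medians lie between -1.52 and -0.83. The counts higher in neurons are 1, 1, 1, 5, 1 and 4 from left to right. Of all genes, 31.0% were higher in neurons.

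Integrins and laminins are also made by cells other than neurons and astrocytes, and markers of such cells were higher in the astrocyte cultures. Of 12 kept fibroblast and meningeal markers (18 listed), 9 were higher in astrocytes and 2 in neurons, with sums of 13206 to 13330 in astrocytes and 1771 to 2056 in neurons. Col1a1 was at 41 and 103 in astrocytes and 27 and 24 in neurons, and Fmod at 5526 and 5541 against 21 and 118. A list sum follows its brightest probe sets. In neurons most of this sum was Pdgfra (1177 and 1302), also an oligodendrocyte lineage marker. Of 8 kept mural and smooth muscle markers (12 listed), 5 were higher in astrocytes and 3 did not pass (Rgs5, Des and Notch3). The list sums were 8371 to 9135 against 299 to 665. Pdgfrb was at 561 and 479 against 15 and 44, and Acta2 at 4544 and 4791 against 87 and 361. All 8 kept ependymal and choroid plexus markers (12 listed) were higher in astrocytes (sums of 1642 to 1763 against 218 to 257), with Foxj1 at 410 and 407 against 35 and 24 and Rsph1 at 261 and 300 against 78 and 65. Their part in the differences of integrin and laminin genes was not tested.

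Endothelial markers were mostly dim in both cultures. Of 14 listed, 3 were kept and 2 of these, the transporter genes Slc2a1 and Slco1a4, were higher in astrocytes, with list sums of 6119 to 6187 in astrocytes and 302 to 307 in neurons. The defining marker Pecam1 was under background on all 4 arrays, at 18 and 3 in neurons and 4 and 2 in astrocytes. In the neuron cultures, 6 of 10 kept oligodendrocyte lineage markers (15 listed) were higher and 3 lower than in astrocytes, with sums of 5371 to 5951 in neurons and 5639 to 6243 in astrocytes. The shares over all genes were 31.0% higher in neurons and 31.1% higher in astrocytes. Olig1 was at 2899 and 1895 in neurons and 3500 and 3997 in astrocytes, and Pdgfra, also on the fibroblast list, at 1177 and 1302 against 19 and 21. Whether such cells held the Lamb1 signal of the neuron cultures was not tested.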

How the data were processed

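Per the labels, biotin-labelled cRNA was made in 2 rounds of cDNA synthesis. The deposited values are intensity values per probe set on a linear scale, computed by the authors with MAS5 per the submitters' processing notes, with no version named there. The mean after trimming 2% at each end was 149.997 to 150.002 on each array, and no detection calls were used. Controls (64 of 45101 probe sets) were left out, and probe sets at or above the array median on at least 2 of 4 arrays were kept (25019). Values were transformed to log2(value + 12.5), the offset being the median of the arrays' 25th percentiles.

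The groups were compared in limma 3.58.1 (R 4.3.3), with a mean-variance trend, two-sided tests and Benjamini-Hochberg adjustment over all kept probe sets. The fit, with 2 residual degrees of freedom, was tested on simulated data. Each gene took the values of 1 kept probe set, that of highest mean log2 value. Precision is limited by the number of arrays, and standard errors of log2 fold changes had a median of 0.197. "At least" folds divide the brighter group's mean signal by the mean background of the other group's arrays. Gene symbols came from the platform annotation, updated by Entrez identifier for 34741 of 34945 probe sets.

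Members and lists were chosen with earlier results of these data known. Every member gene was described; from each function list the 2 largest called changes per direction and the gene with the highest mean were named, and from each marker list the first gene and the highest in each culture. Aif1, Pecam1 and the other probe sets of Tln1 follow from the first-gene and probe set rules. Alternatives were other offsets, filters, normalization, probe set choices, a replicate block and leaving out each array. With an array left out, the same 25019 probe sets were fitted. Replicate numbers are shared by the groups, but the deviations of same-numbered arrays were not positively correlated (r = -0.0901 across probe sets), so the numbers were not taken as pairs.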

Additional observations from a re-analysis of the deposited data

How the results depend on the processing

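Of 19 tested genes, Itga1, Itga6, Itga7, Itgav, Itgb1, Itgb5, Itgb8 and Lamb2 kept their call as higher in astrocytes, and Lamb1 as higher in neurons, under every alternative that gave them a value; no gene reversed. The number of integrin and laminin genes higher in neurons was 2 in place of 1 with an offset 4 times as large, with all kept probe sets of a gene averaged, with the replicate block (the replicate number as a block in the fit) and without astrocytes replicate 1, the second gene being Itga4 each time. The block changed no other call of these genes, and 12 stayed higher in astrocytes. With any 1 array left out, fewer of these genes and of their probe sets were higher in astrocytes. The share of all genes called in those fits is not given, so a general loss of calls cannot be told apart. Probe sets higher in neurons fell from 2 to 1 with the filter at the 75th percentile and without probe sets ending in _s_at, _x_at or _a_at, where 13 in place of 21 were higher in astrocytes; both settings test fewer probe sets. Itga2b passed only with quantile normalization (adjusted p = 0.0475). Among list genes, Tln1 reversed when its probe sets were averaged (-0.23), since these point in opposite directions. The cause of the changes for Itga4 and Itga2b was not tested. Signals near the background of 15 to 23 limit what can be read of the 17 dim genes.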
